A study of Saccharomyces cerevisiae with 24 samples.

Results

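Poly(A) RNA from yeast cells lacking the kinase gene *SNF1* was compared with poly(A) RNA from wild type (WT) cells after 24 hr of culture. The comparison was chosen by the sample labels and takes in 6 of the 24 libraries of the series, 3 from the *snf1*∆ strain JS1394 and 3 from the WT strain JS1256. The same strains at log phase, with 3 libraries each, served to show which differences were already there while glucose was plentiful. The study used these cultures to ask which functions under Snf1 control are needed for survival after glucose runs out.

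Both strains were haploid *MAT*a segregants of a single diploid, made by deleting 1 copy of *SNF1* in the BY4743 background. Both carried the auxotrophic alleles of BY4741 (*his3*∆1, *leu2*∆0, *met15*∆0 and *ura3*∆0). JS1394 carried *snf1*∆::*kanMX4* in addition. Each genotype was therefore represented by 1 segregant, and the 3 libraries of a group came from cultures of the same strain. The labels do not say whether the cultures of a group were started independently, so the p-values measure only the spread between these libraries. Cells were grown at 30°C in medium with 2% glucose and no other treatment. The labels name the medium YPD and the log sample 5 hr, whereas the study's methods use SC medium and a slightly later log time, and this difference could not be resolved.

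Snf1 is the yeast AMP-activated protein kinase. When glucose is scarce it inactivates the repressor Mig1 and activates regulators such as Cat8 and Adr1, which turn on the genes for respiring ethanol, acetate, glycerol and fatty acids. Cells that pass through this diauxic shift also shut down ribosome production and glycolysis and build up storage carbohydrates and stress proteins under the control of the protein kinase A and TOR pathways.

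The deleted gene was examined first. *SNF1* (YDR477W, chrIV:1412373-1414274 on the plus strand of R64) had 11, 6 and 7 reads in the *snf1*∆ libraries at 24 hr, against 234, 319 and 386 reads in the WT libraries. At log the counts were 5, 7 and 2 in *snf1*∆ and 687, 958 and 775 in WT. All libraries thus matched their genotype labels at both times. *MET17*, the *met15*∆0 locus, had 0 reads in all 12 libraries, and *URA3* had at most 3 reads in any of them. *LEU2* had at most 24 reads, in a *snf1*∆ library at log. The a-mating type markers were present in both strains at 24 hr, from the a-factor gene *MFA1* to the pheromone receptor gene *STE2*. All 7 of 7 a-specific genes were higher in *snf1*∆ at 24 hr, with a median log2 fold change of 1.59, and the agglutinin subunit gene *AGA2* led them at 3.04. The alpha-factor gene *MF(ALPHA)1* had 5 to 18 reads per library in *snf1*∆ and 5 to 19 in WT, and did not pass the test. It was the 1 alpha-specific gene of 4 that was not called. The other 3 were higher in *snf1*∆ at 24 hr, and the median log2 fold change of the 4 was 0.48. *SAG1* had 432, 425 and 888 reads in *snf1*∆, against 225, 345 and 354 in WT. *STE3* had 102, 127 and 271 reads in *snf1*∆ and 47, 61 and 79 in WT. *MF(ALPHA)2* had 22, 32 and 72 reads in *snf1*∆ and 12, 14 and 25 in WT.

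Total counts at 24 hr were 3749146, 4820067 and 9761488 in *snf1*∆ and 4149875, 5313460 and 6601328 in WT. Pearson correlations of log2 CPM (read counts scaled to a common library size) were 0.982 to 0.991 within a strain and 0.781 to 0.838 between the strains, and the first principal component, which separated the strains, held 91.2% of the variance. WT replicates 1 and 2 differed less than any other pair (chi-square per gene of 1.62, against 4.60 to 21.4 within the strains otherwise). This was above sampling noise, so they were kept as separate libraries. WT replicate 3 was the highest WT library for some of the genes described below, such as *SPG1*, *ADY2* and *ICL1*, and its values are given with the others. RNA was extracted from whole cultures, so fewer cells of a kind and less RNA per cell cannot be told apart.

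Of 6528 genes tested with edgeR's quasi-likelihood test, 2543 were higher (39.0%) and 2344 lower (35.9%) in *snf1*∆ than in WT at 24 hr at a Benjamini-Hochberg adjusted p under 0.05. A change of at least 2-fold was called for 1356 higher genes (20.8%) and 1207 lower genes (18.5%). The 3 *snf1*∆ values lay wholly above or below the 3 WT values for 4900 genes (75.1%). At log 488 genes were higher (7.48%) and 222 lower (3.40%). The change in the strain difference between log and 24 hr was itself called for 2253 genes in the upward direction (34.5%) and 2225 in the downward direction (34.1%). These shares are the background for the gene lists below, in which any list would hold many called members.

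The balance of the 2 directions depended on scaling. TMM factors, which scale each library by its bulk of genes, were 1.02 to 1.11 in *snf1*∆ and 0.761 to 0.805 in WT at 24 hr, and with them 52.0% of called genes were higher. Scaling by library size alone moved the median over all tested genes to 0.53 (log2), against 0.08 with TMM. It called 3658 genes higher and 1540 lower, which is 70.4% higher. Under that scaling the medians of 8 lists turned positive, namely those of the Snf1 complex and glucose repressors and of the sulfate, nitrogen, phosphate, iron, hypoxic, histone and proteasome genes. All CPM values below use the TMM-scaled library size.

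**Figure D1:**
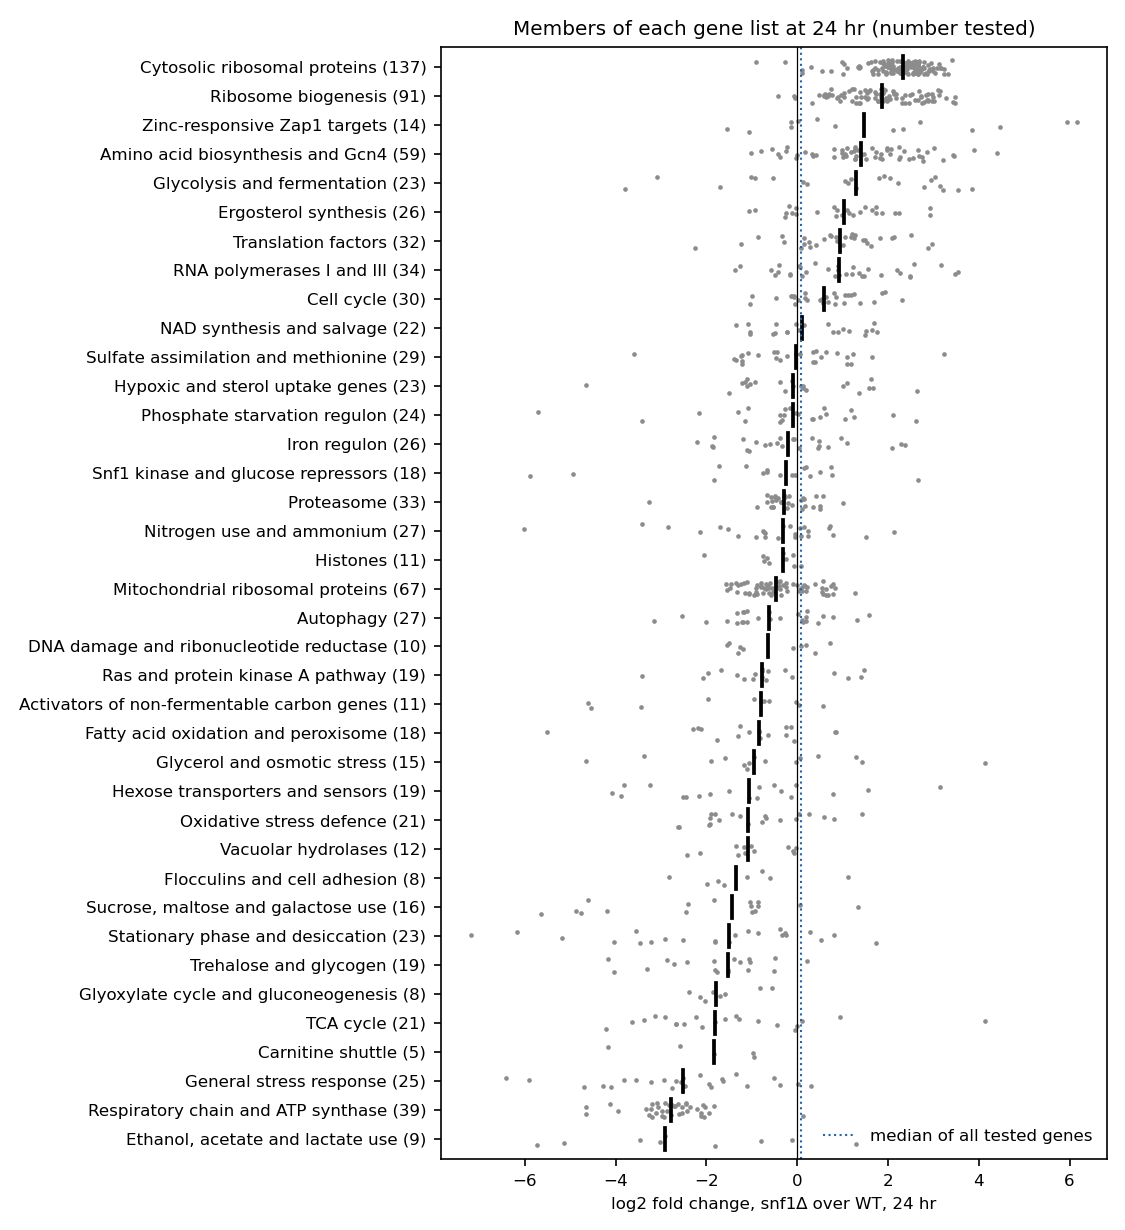
Log2 fold change of *snf1*∆ over WT at 24 hr (horizontal axis) for each tested member (grey points) of the gene lists (vertical axis, number tested in parentheses), with the list median as a black bar and the median of all tested genes, 0.08, as a dotted line. Ribosomal protein genes (median 2.33) and ribosome biogenesis genes (1.87) lie at the high end, and the ethanol, acetate and lactate genes (-2.92) and the respiratory chain (-2.77) at the low end.

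The 10 genes with the largest decreases at 24 hr were of several kinds. *SSA3*, a stress-induced Hsp70 chaperone gene, had 33.2, 35.0 and 31.7 CPM in *snf1*∆, against 2682, 2664 and 3188 CPM in WT (log2 fold change -6.42 ± 0.14, SE; adjusted p = 5.2e-16). *ATO2*, whose product is a putative ammonium and acetate transporter, had 41.6, 39.9 and 32.5 CPM in *snf1*∆ and 2605, 2530 and 2176 CPM in WT (-6.02 ± 0.14). For both genes every *snf1*∆ library was far below every WT library. *SPG1*, named for a role in survival in stationary phase, had 6.59, 5.09 and 4.42 CPM in *snf1*∆, against 593, 527 and 1107 CPM in WT (-7.18 ± 0.29), with WT replicate 3 the highest. The desiccation-induced hydrophilin gene *SIP18* had 21.3, 22.6 and 16.9 CPM in *snf1*∆, against 1176, 1163 and 1959 CPM in WT (-6.17 ± 0.23). The others were the uncharacterized ORF *YMR175W-A* (-6.23), *YIG1*, a glycerol synthesis modifier gene (-7.26), the uncharacterized *YNL195C* (-6.24), the ribosome-associated stress gene *TMA10* (-6.13) and the protein sorting chaperone gene *BTN2* (-5.92), together with *SNF1* itself (-5.90).

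The genes with the largest increases were of another kind. *VEL1* and *YOR387C*, a pair of related genes of unknown function that respond to zinc depletion, were highest. *VEL1* had 987, 963 and 1064 CPM in *snf1*∆, against 15.2, 16.1 and 11.5 CPM in WT (6.16 ± 0.20; adjusted p = 2.4e-14). *YOR387C* was 5.95 above WT on the log2 scale. Biosynthetic genes followed, namely the lysine pathway genes *LYS9* (4.41) and *LYS12* (3.90) and the biotin synthesis gene *BIO3* (4.21). The glycerol-3-phosphatase gene *GPP1* (4.13), the rRNA processing helicase gene *RRP3* (4.06) and the zinc-responsive genes *ADH4* (4.47) and *ZPS1* (3.86) were also among the 10 with the largest increase. Genes were eligible for both groups of 10 only if their libraries did not overlap between the strains. The lack of overlap was therefore set by that rule.

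The activators of non-fermentable carbon use were themselves low. *CAT8*, the activator of gluconeogenic genes, had 20.8, 22.0 and 19.1 CPM in *snf1*∆ at 24 hr, against 457, 460 and 512 CPM in WT (-4.54 ± 0.11; adjusted p = 1.3e-15). *ADR1*, the activator of ethanol and peroxisomal genes, had 40.3, 37.3 and 24.4 CPM in *snf1*∆ and 782, 837 and 816 CPM in WT (-4.62 ± 0.16). *HAP4*, the regulated subunit of the Hap2/3/4/5 complex that drives respiratory genes, had 103, 94.9 and 80.0 CPM in *snf1*∆, against 1037, 1065 and 915 CPM in WT (-3.45 ± 0.13). None of the 3 genes overlapped between the strains. Genes with per-library values were mostly those with the largest changes of a list. Their lack of overlap was thus largely set by that choice, here and below, and it held for 75.1% of all tested genes. From log to 24 hr *CAT8*, *ADR1* and *HAP4* changed by 5.15, 3.51 and 2.94 in WT, in this order. In *snf1*∆ they changed by 0.53, 0.12 and -0.18. *ADR1* was already lower at log (-1.22), while the log differences of *CAT8* and *HAP4* were not called. Of the 11 activators tested, 8 were lower and 1 was higher, with a median of -0.80 beside 0.08 for all tested genes. Scaling by library size alone called 5 lower and 3 higher, with a median of -0.35. The higher one was *PIP2* (0.56), which encodes the partner of the oleate-responsive factor Oaf1, and *SIP4*, a relative of *CAT8*, was lower (-0.62), a call that was lost with scaling by library size alone (-0.17, adjusted p = 0.308).

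Genes for taking up and oxidizing ethanol, acetate and lactate formed the list with the lowest median, -2.92, with 7 of 9 members lower and 1 higher. *JEN1*, the lactate and pyruvate permease gene, had 60.3, 59.2 and 40.8 CPM in *snf1*∆, against 2975, 3063 and 2408 CPM in WT (-5.74 ± 0.18). The acetate permease gene *ADY2* had 7.35, 3.46 and 5.89 CPM in *snf1*∆ and 106, 113 and 361 CPM in WT (-5.14 ± 0.43), so that WT replicate 3 was above the other WT libraries, but all 3 were above *snf1*∆. *CYB2*, the lactate dehydrogenase of the mitochondrial intermembrane space, was lower (-3.47), and the mitochondrial aldehyde dehydrogenase gene *ALD4* was lower (-2.92). The acetyl-CoA synthetase genes moved in opposite directions. *ACS1*, the glucose-repressed form, had 89.7, 104 and 75.1 CPM in *snf1*∆, against 660, 672 and 836 CPM in WT (-3.02 ± 0.13; adjusted p = 5.9e-13). *ACS2*, the form used during growth on glucose, had 425, 395 and 420 CPM in *snf1*∆ and 187, 188 and 134 CPM in WT (1.29 ± 0.12). *ADH2*, the ethanol-oxidizing alcohol dehydrogenase, did not pass the test (-0.11 ± 0.15, adjusted p = 0.50). It shares 11.8% of its 75-base stretches with another locus, so its value is uncertain.

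Upstream of *ACS1* lies a match to the carbon source element bound by Cat8 and Sip4 (CC, any 6 bases, CCG). The stretch shown is the part of its promoter from 250 to 101 bases before the start codon, chrI:45123-45272 on the minus strand of R64, with the match in capitals. *ACS1* is the only 1 of the 9 members of the ethanol, acetate and lactate list with the element in its promoter (11.1%), near the share over all promoters given below.
ACS1: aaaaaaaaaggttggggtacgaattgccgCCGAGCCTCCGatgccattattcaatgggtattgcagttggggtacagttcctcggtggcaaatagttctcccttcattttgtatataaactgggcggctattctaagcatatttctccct
Over the window from 250 bases before to 50 after the start codon, 10.2% of 5988 promoters held this element on either strand, 13.0% of those of genes at least 2-fold lower and 9.12% of those of genes at least 2-fold higher in *snf1*∆. The element stood in 0 of the 8 promoters of the glyoxylate cycle and gluconeogenesis list. It stood in 25 of 137 promoters of cytosolic ribosomal protein genes (18.2%), a list that was higher in *snf1*∆. Elements farther from the start codon than this window were not searched for, here or for the motifs below. A gene counted without an element can thus still have one. The shares are descriptions, and divergent genes can share a promoter.

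The glyoxylate cycle and gluconeogenesis genes were lower as a list, with 7 of 8 members lower, none higher and a median of -1.78. *ICL1*, isocitrate lyase, had 32.7, 33.4 and 30.8 CPM in *snf1*∆, against 140, 124 and 235 CPM in WT (-2.38 ± 0.18). The malate synthase gene *MLS1* had 83.9, 83.7 and 69.3 CPM in *snf1*∆ and 283, 265 and 490 CPM in WT (-2.15 ± 0.19). WT replicate 3 was the highest WT library for both, and no *snf1*∆ library reached any WT library. *FBP1* (-2.03) and *PCK1* (-1.86), the fructose-1,6-bisphosphatase and PEP carboxykinase genes of gluconeogenesis, were lower by similar amounts. *ICL1* changed by -0.04 from log to 24 hr in *snf1*∆, where it changed by 2.37 in WT. *MLS1*, in contrast, still rose by 3.81 in *snf1*∆, where it rose by 6.09 in WT. *CIT2*, the peroxisomal citrate synthase gene, was less low (-0.81), and the succinate-fumarate carrier gene *SFC1* did not pass the test (-0.57, adjusted p = 0.054).

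In the fatty acid oxidation and peroxisome list 13 of 18 genes were lower and 2 higher (median -0.85). *POT1*, the peroxisomal thiolase that ends each round of beta-oxidation, had 6.33, 4.48 and 3.96 CPM in *snf1*∆, against 189, 145 and 306 CPM in WT (-5.52 ± 0.26). *FOX2*, the multifunctional enzyme before it, was lower (-2.18), and *PXA1*, a subunit of the peroxisomal fatty acid importer, was lower (-2.30). The genes above WT were *ANT1* (0.85), a peroxisomal adenine nucleotide carrier, and *PEX21* (0.83), an import receptor partner. All 5 genes of the carnitine shuttle, which moves acetyl units between compartments, were lower, with a median of -1.83. *CAT2*, the main carnitine acetyltransferase, had 37.8, 33.2 and 32.4 CPM in *snf1*∆ and 594, 612 and 634 CPM in WT (-4.16 ± 0.12). The mitochondrial carnitine carrier gene *CRC1* was lower (-2.59), although it rose by 5.04 from log in *snf1*∆ and by 7.39 in WT.

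**Figure D2:**
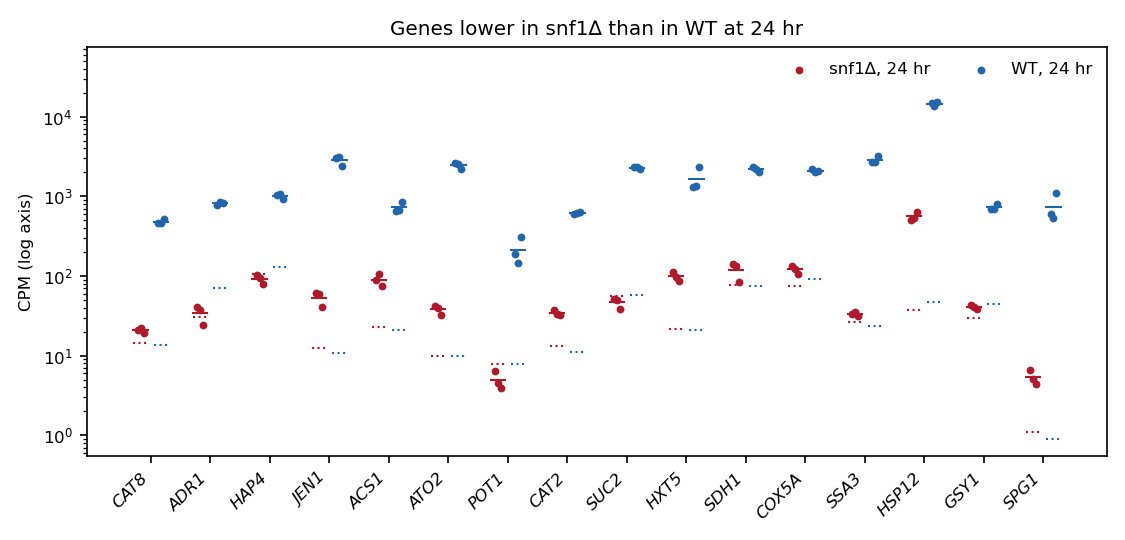
CPM on a log axis for 16 genes lower in *snf1*∆ than in WT at 24 hr, with each library a point (*snf1*∆ red, left of WT blue), the mean of the 3 libraries a solid line and the log-phase mean of the same strain a dotted line. No *snf1*∆ point reaches a WT point, but the genes were chosen as lower, so this separation is not a result. *CAT8*, *SUC2*, *SSA3* and *GSY1* stayed in *snf1*∆ near their log-phase level.

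Sugar uptake and the use of sugars other than glucose were lower at 24 hr. *SUC2*, the invertase gene whose loss of expression gave the kinase its name, had 51.4, 49.9 and 37.9 CPM in *snf1*∆, against 2312, 2355 and 2200 CPM in WT (-5.64 ± 0.13; adjusted p = 9.4e-16). Its change from log was -0.30 in *snf1*∆, where it was 5.31 in WT. The maltose permease genes *MAL31* (-4.86) and *MAL11* (-4.77) were also lower, and both were lower at log too (-0.93 and -0.87). Of the 16 sucrose, maltose and galactose genes 14 were lower and 1 higher, with a median of -1.43. The higher one was *GAL7*, a galactose pathway gene, at 13.2, 8.55 and 8.0 CPM in *snf1*∆, against 4.43, 2.69 and 4.14 CPM in WT (1.35 ± 0.27). The letters of the Mig1 motif (CCCC, A or G, then C or G) were found in 6 of these 16 promoters (37.5%), against 11.7% of all promoters, 18.6% of those of genes at least 2-fold lower and 7.76% of those of genes at least 2-fold higher.

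Hexose transporters and glucose sensors were lower in 13 of 19 cases and higher in 3 (median -1.06). *HXT5*, a transporter gene of slow-growing cells, had 111, 96.7 and 87.4 CPM in *snf1*∆, against 1315, 1329 and 2346 CPM in WT (-4.09 ± 0.20). The high-affinity transporter genes *HXT6* (-3.82) and *HXT7* (-3.88) share 95.0% of their 75-base stretches and were lower as a pair, with 2012, 2037 and 1455 CPM for *HXT6* in *snf1*∆, against 28499, 28575 and 20632 CPM in WT. They were also lower at log (-0.96 and -1.07). *HXT1*, the low-affinity transporter of high glucose, went the other way (1.56), and *HXT3* did not pass the test (-0.03). Sensors and co-repressors split in the same manner. The low-glucose sensor gene *SNF3* was lower (-2.17) and the high-glucose sensor gene *RGT2* 0.79 higher. *MTH1*, an Rgt1 co-repressor gene, had 69.9, 62.7 and 42.0 CPM in *snf1*∆ and 330, 332 and 278 CPM in WT (-2.45 ± 0.16). Its paralog *STD1* had 59.0, 50.3 and 68.5 CPM in *snf1*∆, against 7.28, 8.06 and 5.27 CPM in WT (3.15 ± 0.17).

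Glycolysis was the main part of carbon metabolism that stayed high, with 15 of 23 genes higher, 6 lower and a median of 1.28. *ENO2*, the enolase of growth on glucose, had 16471, 18939 and 15754 CPM in *snf1*∆, against 1298, 1267 and 974 CPM in WT (3.85 ± 0.14), and it shares 10.7% of its 75-base stretches with *ENO1*. *GPM1*, phosphoglycerate mutase, had 10744, 12450 and 12402 CPM in *snf1*∆ and 1073, 1024 and 972 CPM in WT (3.54 ± 0.12). The pyruvate decarboxylase gene *PDC1*, at the branch to ethanol, was 3.21 higher. None of these overlapped between the strains. The change of *ENO2* from log was 0.00 in *snf1*∆ and -3.77 in WT. The lower genes included glucose-repressed isozymes. *HXK1* had 693, 648 and 541 CPM in *snf1*∆ and 9219, 8930 and 7782 CPM in WT (-3.79 ± 0.19), and *GLK1*, which overlaps *YCL042W*, was lower (-3.09), whereas *HXK2*, the hexokinase of high glucose, did not pass the test (0.12, adjusted p = 0.44). The pyruvate kinases split as well, with *CDC19* 3.13 higher and *PYK2*, its glucose-repressed paralog, lower (-1.02).

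The respiratory chain and ATP synthase were lower almost throughout, with 38 of 39 nuclear genes lower, all 38 of them by at least 2-fold, and a median of -2.77. *COX5A*, the aerobic form of a cytochrome oxidase subunit, had 133, 124 and 105 CPM in *snf1*∆, against 2195, 2039 and 2046 CPM in WT (-4.12 ± 0.13). *COX5B*, its hypoxic counterpart and the 1 gene that was not called, had 156, 178 and 200 CPM in *snf1*∆ and 151, 151 and 186 CPM in WT (0.13 ± 0.13, adjusted p = 0.34). *GUT2*, the mitochondrial glycerol-3-phosphate dehydrogenase, had 85.9, 62.9 and 58.1 CPM in *snf1*∆ and 1806, 1769 and 1552 CPM in WT (-4.64 ± 0.18). *CYC7*, the second cytochrome c gene, was lower (-4.65), and *NDE1*, the external NADH dehydrogenase, was lower (-3.95). From log to 24 hr the list median moved by 0.90 in *snf1*∆ and by 3.61 in WT. The letters CCAAT, the core bound by Hap2/3/4/5, stood in 30 of the 39 promoters (76.9%), against 43.3% of all promoters. They stood in 43.7% of the promoters of genes at least 2-fold lower and in 42.8% of those at least 2-fold higher, so these letters did not separate the directions over all genes.

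The tricarboxylic acid cycle followed the respiratory chain, with 16 of 21 genes lower, 2 higher and a median of -1.82. *SDH1*, the flavoprotein of succinate dehydrogenase, had 140, 134 and 83.6 CPM in *snf1*∆, against 2325, 2227 and 2038 CPM in WT (-4.21 ± 0.17). *SDH4*, a membrane subunit of the same complex, was lower (-3.65). *ACO1*, the aconitase of the cycle, had 177, 161 and 175 CPM in *snf1*∆ and 652, 668 and 1079 CPM in WT (-2.23 ± 0.16). *LSC1* (0.10) and *IDP1* (-0.01) did not pass the test. The pyruvate carboxylase genes also differed, with *PYC1* lower (-1.82) and *PYC2* not called (-0.05). Mitochondrial ribosomal protein genes showed a weaker shift, with 39 of 67 lower, 12 higher and a median of -0.48. Scaling by library size alone left 19 lower and 23 higher, with a median of -0.03, so these counts and the median depended on the scaling. The distance of the list median from the median of all tested genes was -0.55 with TMM and -0.56 with library size alone.

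**Figure D3:**
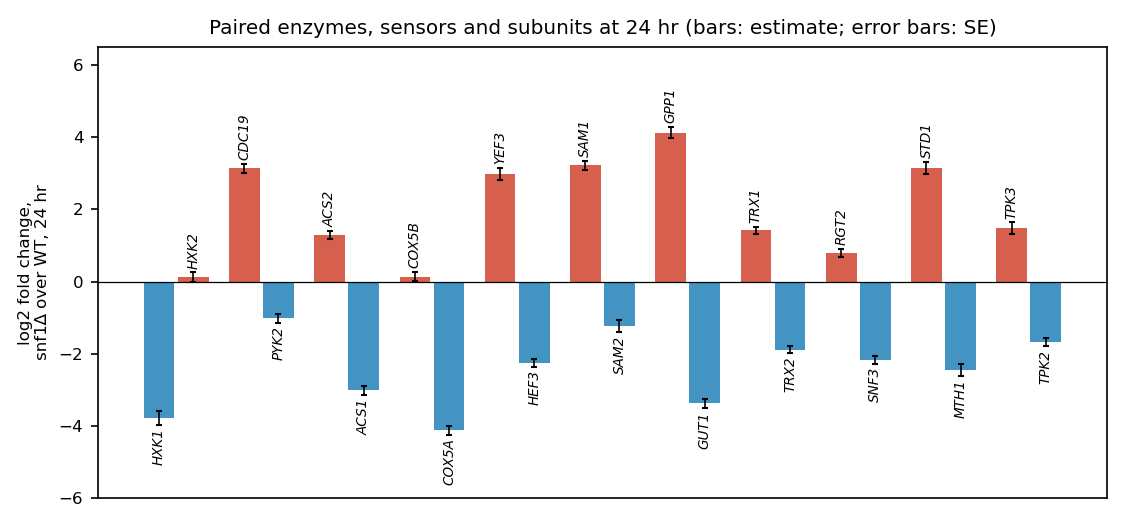
Log2 fold change of *snf1*∆ over WT at 24 hr (vertical axis) for paired isozymes, sensors, subunits and opposing enzymes, with the fitted estimate as a bar and its SE as an error bar. The pairs were chosen to show members that differed in direction, so the split itself is not a result. Paralog pairs that moved together, such as *HXT6* and *HXT7*, are not drawn. In each pair shown 1 member is higher (*CDC19* 3.13, *ACS2* 1.29, *YEF3* 2.98) and its partner lower (*PYK2* -1.02, *ACS1* -3.02, *HEF3* -2.25), except that *HXK2* and *COX5B* did not pass the test.

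General stress response genes were lower. Of 25 genes 23 were lower and none higher, 21 of them by at least 2-fold, with a median of -2.52 (21 lower and 2 higher with scaling by library size alone). *HSP12*, the small membrane-bound heat shock protein gene, had 504, 531 and 636 CPM in *snf1*∆, against 14868, 13546 and 15287 CPM in WT (-4.71 ± 0.24). The chaperone gene *HSP82*, the inducible Hsp90, had 329, 363 and 436 CPM in *snf1*∆ and 6364, 6611 and 6507 CPM in WT (-4.11 ± 0.16). *OYE3*, an NADPH oxidoreductase gene, was lower (-4.29). No library of *snf1*∆ reached WT for these genes. The list median rose by 1.52 from log in *snf1*∆ and by 5.18 in WT. *HSP26*, a small chaperone gene, rose by 6.98 in *snf1*∆ and by 11.03 in WT. Among the regulators, *MSN2* did not pass the test (32.7, 28.1 and 27.3 CPM in *snf1*∆, against 23.1, 32.5 and 30.5 CPM in WT; 0.01 ± 0.14), while *MSN4* was lower (-1.10) and *GIS1*, a regulator of post-diauxic genes, was lower (-2.77). *YRO2*, a membrane protein gene, was the other member that did not pass the test (0.30, adjusted p = 0.055).

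The *HSP12* promoter is shown for the stress element bound by Msn2 and Msn4 (AGGGG). Of the called stress genes with this element and a mean log2 CPM of at least 3, *HSP12* had the largest change. The same rule chose *ACS1* and *NOP56* from the lists of non-fermentable carbon use and ribosome biogenesis. The *HSP12* promoter holds 2 copies (read on the opposite strand as CCCCT, in capitals), 232 and 190 bases before the start codon. The stretch is chrVI:107006-107155 on the plus strand of R64, from 250 to 101 bases before the start codon.
HSP12: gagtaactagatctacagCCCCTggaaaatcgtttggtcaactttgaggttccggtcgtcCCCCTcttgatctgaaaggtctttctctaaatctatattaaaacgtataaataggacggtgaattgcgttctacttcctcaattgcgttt
The element was found in 15 of the 25 stress promoters (60.0%) and in 20 of the 39 respiratory promoters (51.3%), against 21.7% of all promoters. Among genes at least 2-fold lower in *snf1*∆ 35.7% held it, and among genes at least 2-fold higher 12.6% did. The motif of Gis1 (AGGGAT), which shares its first letters with the stress element, stood in 15.1% and 5.84% of these promoters and in 9.34% of all. *SSA3* and *BTN2*, with the largest decreases of the list, had no AGGGG in this window.

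Storage carbohydrate genes were lower in 18 of 19 cases, none higher, with a median of -1.54 (16 lower and 1 higher with scaling by library size alone). *GSY1*, the minor glycogen synthase, had 42.6, 40.7 and 38.9 CPM in *snf1*∆, against 691, 700 and 803 CPM in WT (-4.17 ± 0.19). The glycogen-priming gene *GLG2* had 6.84, 9.37 and 8.19 CPM in *snf1*∆ and 122, 116 and 165 CPM in WT (-4.04 ± 0.16). *GDB1*, the debranching enzyme gene, was lower (-3.31), so genes of both synthesis and breakdown were low. *TPS1*, trehalose-6-phosphate synthase, was lower (-1.39) and the vacuolar trehalase gene *ATH1* lower (-2.42). *PGM1*, the minor phosphoglucomutase, was the 1 gene that was not called (0.20), while *PGM2*, the major form, was lower (-1.83).

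Of 23 genes of stationary phase and desiccation 17 were lower and 3 higher (median -1.51). *GRE1*, a hydrophilin gene like *SIP18*, had 76.8, 64.5 and 46.4 CPM in *snf1*∆, against 1662, 1491 and 3542 CPM in WT (-5.18 ± 0.29), with WT replicate 3 above the others. The vitamin B6 synthesis genes *SNO1* (1.74) and *SNZ1* (0.81), which lie side by side, were higher, and they were higher at log as well (0.93 and 0.86). Oxidative stress genes were lower in 15 of 21 cases and higher in 4 (median -1.08). *GPX1*, a peroxidase gene, had 58.5, 59.9 and 57.6 CPM in *snf1*∆ and 336, 369 and 383 CPM in WT (-2.63 ± 0.10). The stress-induced peroxiredoxin gene *TSA2* was lower (-2.60), mitochondrial superoxide dismutase *SOD2* lower (-1.73) and the catalase gene *CTT1* lower (-1.94). The thioredoxins split, with *TRX2* lower (-1.89) and *TRX1* 1.42 higher.

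Autophagy genes were mixed, with 16 of 27 lower, 4 higher and a median of -0.63 (13 lower and 11 higher with scaling by library size alone). The lower ones were led by receptors of selective autophagy. *ATG39*, the receptor for the nuclear envelope, had 25.1, 22.2 and 23.9 CPM in *snf1*∆, against 199, 187 and 245 CPM in WT (-3.15 ± 0.14). *ATG36*, the receptor for peroxisomes, was lower (-2.54), and *ATG8*, the ubiquitin-like protein of the autophagosome membrane, was lower (-2.01). *ATG5*, of the conjugation machinery, was higher, with 114, 126 and 94.0 CPM in *snf1*∆ and 37.1, 41.5 and 33.5 CPM in WT (1.57 ± 0.13). Of 12 vacuolar hydrolase genes 8 were lower and none higher (median -1.08), whereas scaling by library size alone called 8 lower and 4 higher (median -0.64). The vacuolar proteinase B gene *PRB1* did not pass the test (-0.04).

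Genes of the Ras and protein kinase A pathway, which promotes growth on glucose, were lower in 13 of 19 cases and higher in 4 (median -0.78). Negative regulators were among the lower ones. *IRA2*, which switches Ras off, had 249, 231 and 196 CPM in *snf1*∆, against 2313, 2461 and 2437 CPM in WT (-3.42 ± 0.12). *BCY1*, the inhibitory subunit of protein kinase A, had 206, 227 and 179 CPM in *snf1*∆ and 798, 770 and 809 CPM in WT (-1.96 ± 0.12). Of the catalytic subunit genes *TPK2* was lower (-1.68) and *TPK3* 1.48 higher. *RAS1* was 1.39 higher at 24 hr and lower (-0.61) at log, and the change between the times was called (2.00).

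Among the 18 genes of the Snf1 complex and the glucose repressors 9 were lower and 5 higher, with a median of -0.25 that turned positive under scaling by library size alone. Apart from *SNF1*, *REG2* changed most. It encodes a subunit that brings the phosphatase Glc7 to Snf1, and it had 3.04, 4.07 and 3.40 CPM in *snf1*∆, against 114, 119 and 94.3 CPM in WT (-4.95 ± 0.17). The gamma subunit gene *SNF4* did not pass the test (0.14), and of the beta subunit genes *SIP2* was lower (-1.73). The repressor genes *MIG1* (-1.13) and *MIG2* (-1.83) were lower, while *NRG2* had 66.9, 58.2 and 96.2 CPM in *snf1*∆ and 13.6, 12.9 and 9.79 CPM in WT (2.65 ± 0.19).

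Ribosomal protein genes had the highest median of all lists. Of 137 cytosolic ribosomal protein genes tested 133 were higher and 1 lower, 129 of them higher by at least 2-fold, with a median of 2.33. *RPL3* had 815, 989 and 943 CPM in *snf1*∆, against 103, 95.0 and 77.2 CPM in WT (3.32 ± 0.13; adjusted p = 2.3e-13). *RPL22A* had 86.6, 117 and 136 CPM in *snf1*∆ and 15.2, 10.7 and 7.34 CPM in WT (3.42 ± 0.21). *RPL27B* was 3.23 higher, and *RPS27A* was the 1 gene that was lower (-0.90). The list median changed by -2.51 from log in *snf1*∆ and by -5.18 in WT, and at log it was -0.37 between the strains, with 42 members lower and none higher. Of the 137 genes 23 share over 10% of their 75-base stretches with another locus, mostly the paralog, so their single values are less certain than the list.

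Ribosome biogenesis genes behaved alike, with 87 of 91 higher, 1 lower, 74 higher by at least 2-fold and a median of 1.87. *NOP56*, a core protein of the box C/D small nucleolar ribonucleoproteins, had 85.6, 92.0 and 109 CPM in *snf1*∆, against 8.55, 8.54 and 8.66 CPM in WT (3.48 ± 0.14). The RNA helicase gene *DBP2* had 187, 208 and 212 CPM in *snf1*∆ and 19.95, 20.7 and 14.7 CPM in WT (3.48 ± 0.15). *NOP16* was the exception (-0.43), with libraries that overlapped between the strains. Its call was lost with library size alone (0.028), with upper-quartile scaling (-0.28), with all 24 libraries (-0.42, adjusted p = 0.189) and without *snf1*∆ replicate 1 (-0.30), *snf1*∆ replicate 2 (-0.34) or WT replicate 3 (-0.29). The list median changed by -1.60 from log in *snf1*∆ and by -3.68 in WT. The promoter of *NOP56* is shown for its match to PAC (GATGAG, in capitals), a motif of this regulon, 127 bases before the start codon, at chrXII:545847-545996 on the plus strand of R64.
NOP56: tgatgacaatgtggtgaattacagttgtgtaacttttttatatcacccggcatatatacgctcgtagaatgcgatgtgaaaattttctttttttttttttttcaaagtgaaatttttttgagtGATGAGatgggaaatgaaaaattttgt
PAC stood in 85 of the 91 promoters (93.4%), against 20.4% of all, 29.0% of those of genes at least 2-fold higher and 17.7% of those at least 2-fold lower. The companion motif RRPE (AAAAATTT) stood in 79 of the 91 (86.8%), against 14.2% of all, 26.7% of those at least 2-fold higher and 8.01% of those at least 2-fold lower.

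**Figure D4:**
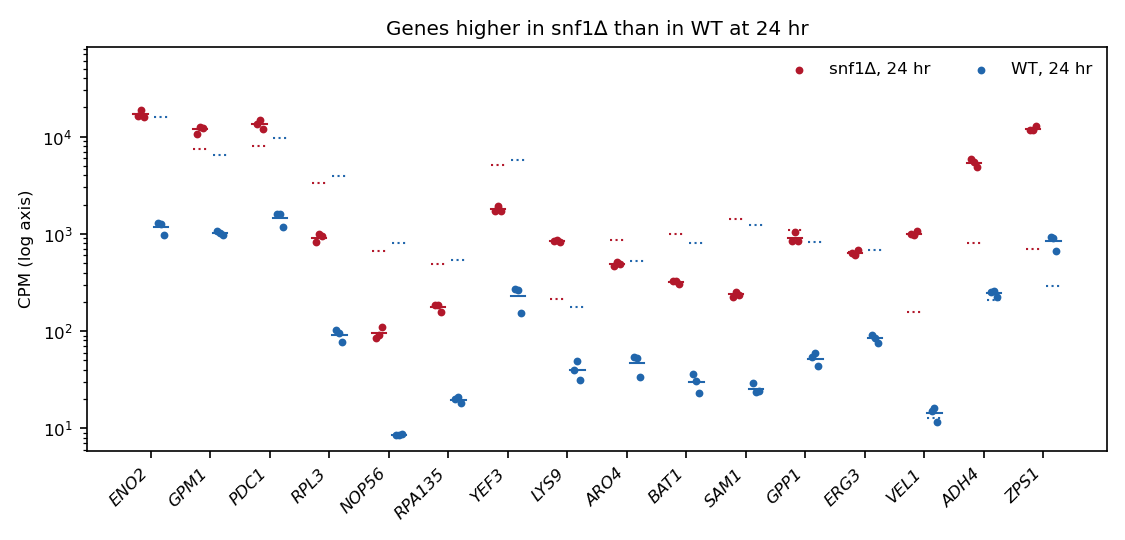
CPM on a log axis for 16 genes higher in *snf1*∆ than in WT at 24 hr, drawn as libraries (*snf1*∆ red, left of WT blue), means (solid lines) and log-phase means of the same strain (dotted lines). No *snf1*∆ point reaches a WT point, but the genes were chosen as higher, so this separation is not a result. *RPL3*, *NOP56*, *RPA135* and *YEF3* lie below their log-phase level in both strains, whereas *VEL1*, *ADH4* and *ZPS1* lie above it in *snf1*∆. *ZPS1* lies above it in WT too.

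RNA polymerase I and III genes were higher in 22 of 34 cases and lower in 6 (median 0.91). *RPA135*, the second largest subunit of polymerase I, had 187, 187 and 156 CPM in *snf1*∆, against 19.95, 21.0 and 18.1 CPM in WT (3.17 ± 0.13). *RPA49*, a polymerase I subunit, had 34.2, 29.9 and 43.3 CPM in *snf1*∆ and 3.80, 3.42 and 2.82 CPM in WT (3.47 ± 0.20). Lower members included the polymerase I core factor gene *RRN7* (-1.38) and *RPC82* (-1.27), a polymerase III subunit. Translation factor genes were higher in 24 of 32 cases and lower in 5 (median 0.94). *YEF3*, elongation factor 3 of growing cells, had 1735, 1948 and 1730 CPM in *snf1*∆, against 272, 264 and 153 CPM in WT (2.98 ± 0.18). Its paralog *HEF3* had 150, 137 and 118 CPM in *snf1*∆ and 580, 605 and 726 CPM in WT (-2.25 ± 0.11). The initiation factor 3 gene *RPG1* was 2.89 higher. The genes for the hypusine-containing factor also parted, with *ANB1*, the hypoxic form, 1.61 higher and *HYP2*, the aerobic form, lower (-1.23).

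Amino acid synthesis was kept high, with 49 of 59 genes higher, 5 lower and a median of 1.40. Unlike ribosomal genes, these genes were already higher at log in 36 of 59 cases, with none lower and a median of 0.56. From log to 24 hr the list median changed by 0.08 in *snf1*∆ and by -0.79 in WT. *LYS9* and *LYS12* rose by 1.97 and 1.09 in *snf1*∆, where they changed by -2.13 and -2.56 in WT. *LYS9*, saccharopine dehydrogenase, had 850, 863 and 826 CPM in *snf1*∆, against 39.6, 49.1 and 31.4 CPM in WT (4.41 ± 0.14). *LYS12*, homoisocitrate dehydrogenase, had 385, 442 and 501 CPM in *snf1*∆ and 29.5, 33.2 and 26.5 CPM in WT (3.90 ± 0.13). Both steps belong to lysine synthesis, as does *LYS2* (2.77), though *LYS4* did not pass the test (-0.25). *ARO4*, the entry to aromatic amino acids, was 3.42 higher, and *BAT1*, the mitochondrial branched-chain aminotransferase, had 326, 330 and 308 CPM in *snf1*∆ and 36.1, 30.5 and 23.2 CPM in WT (3.44 ± 0.16). The transcript of *GCN4*, their activator, went the other way (-0.42 ± 0.12, and 0.021 with scaling by library size alone), though Gcn4 is known to be controlled mainly in translation. *HIS3*, which both strains carry as the partial deletion *his3*∆1, was also higher, with 187, 201 and 164 CPM in *snf1*∆ and 54.8, 52.5 and 44.8 CPM in WT (1.86 ± 0.11).

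S-adenosylmethionine synthesis split between paralogs. *SAM1* had 226, 250 and 237 CPM in *snf1*∆, against 29.1, 23.7 and 24.1 CPM in WT (3.22 ± 0.13), while *SAM2* had 43.8, 43.6 and 52.8 CPM in *snf1*∆ and 93.4, 85.7 and 151 CPM in WT (-1.23 ± 0.17). The methionine permease gene *MUP3* was lower (-3.59). The sulfate and methionine list as a whole had 9 higher and 13 lower members of 29, and its median of -0.02 changed sign with the scaling.

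Sterol synthesis genes were higher in 18 of 26 cases and lower in 4 (median 1.04). *ERG3*, the C-5 sterol desaturase, had 628, 611 and 681 CPM in *snf1*∆, against 92.2, 84.5 and 75.5 CPM in WT (2.93 ± 0.11). *ERG25*, the C-4 methyl sterol oxidase, had 593, 588 and 611 CPM in *snf1*∆ and 79.8, 84.2 and 73.0 CPM in WT (2.92 ± 0.11). *ERG4*, the last step of the pathway, was 2.23 higher. Among the lower ones were *HMG2* (-1.07), an HMG-CoA reductase gene, and *ERG9* (-0.93), squalene synthase. The fatty acid desaturase gene *OLE1* was 1.59 higher.

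Cell cycle genes were higher in 17 of 30 cases and lower in 3 (median 0.59). *SWI5*, a transcription factor of the end of mitosis, was 2.31 higher, the G1 cyclin gene *PCL2* 1.93 higher and the replicative helicase gene *MCM5* 1.88 higher. The lower ones were *WHI5* (-1.04) and *SIC1* (-1.0), which restrain entry into S phase, and the G1 cyclin gene *CLN3* (-0.46), whose libraries overlapped. The call of *CLN3* was lost with upper-quartile scaling (-0.32), with library size alone (-0.012), with all 24 libraries (-0.43, adjusted p = 0.291) and without *snf1*∆ replicate 3 (-0.34), WT replicate 1 (-0.35) or WT replicate 2 (-0.39). The list declined from log in both strains, by a median of -1.30 in *snf1*∆ and -2.41 in WT.

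Targets of Zap1, the activator that responds to low zinc, included genes that rose after log in *snf1*∆. Of 14 genes 9 were higher and 2 lower, with a median of 1.47. *ADH4*, an alcohol dehydrogenase induced without zinc, had 5925, 5431 and 4874 CPM in *snf1*∆, against 250, 261 and 223 CPM in WT (4.47 ± 0.14). *ZPS1*, a cell wall protein gene, had 11794, 11730 and 12800 CPM in *snf1*∆ and 930, 908 and 667 CPM in WT (3.86 ± 0.16). The list median rose from log in both strains, by 2.56 in *snf1*∆ and by 1.06 in WT. *ADH4* rose by 2.76 from log in *snf1*∆ and changed by 0.22 in WT, and *VEL1* rose by 2.68 in *snf1*∆ and changed by 0.14 in WT. *ZPS1* and *YOR387C* rose in both strains, by 4.12 and 3.29 in *snf1*∆ and by 1.53 and 1.39 in WT. *ADH4* and *VEL1* were above WT at log too, by 1.93 and 3.62. The lower members were *ZAP1* itself (-1.56) and *ZRT1*, the high-affinity zinc transporter gene, with 6714, 6801 and 6881 CPM in *snf1*∆ and 15322, 15171 and 12314 CPM in WT (-1.07 ± 0.11). *VEL1*, *MNT2* (2.70), *ADH4* and *ZRT1* are neighbours near the left end of chromosome VII.

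The promoter of *ZRT1* is shown because it was the only one of the 14 with a full match to the Zap1 motif (ACCTT, any base, AAGGT, in capitals), 204 bases before the start codon at chrVII:20728-20877 on the plus strand of R64. Of all 5988 promoters 5 held such a match, and that of *VEL1* did not.
ZRT1: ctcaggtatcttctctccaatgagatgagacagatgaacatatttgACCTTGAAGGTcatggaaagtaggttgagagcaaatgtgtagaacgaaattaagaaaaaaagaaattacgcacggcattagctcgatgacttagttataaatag
The gene with the full match was thus lower in *snf1*∆, while other genes of the list were higher.

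At log far fewer genes differed. Called at both times were 589 genes, of which 254 were higher at both, 73 were lower at both, 154 were higher at log and lower at 24 hr and 108 were lower at log and higher at 24 hr. The difference between the times was called for all 262 genes that turned. *HSP26* was 1.11 higher in *snf1*∆ at log and lower (-2.94) at 24 hr, and the trehalase gene *NTH1* was 0.44 higher at log and lower (-1.08) at 24 hr. In the stress list 10 of 25 genes were higher at log and 1 was lower, with a median of 0.23, the reverse of 24 hr. The ribosomal protein list turned in the opposite sense, from 42 members lower at log to 133 higher at 24 hr. The counts at log, and so the counts of genes that turned, depended on the fit. With all 24 libraries 112 genes were higher and 28 lower at log. The comparisons at the 2 times use different libraries, and each strain's change from log to 24 hr uses the same 24 hr libraries as the strain difference, so the changes are given as values only.

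**Figure D5:**
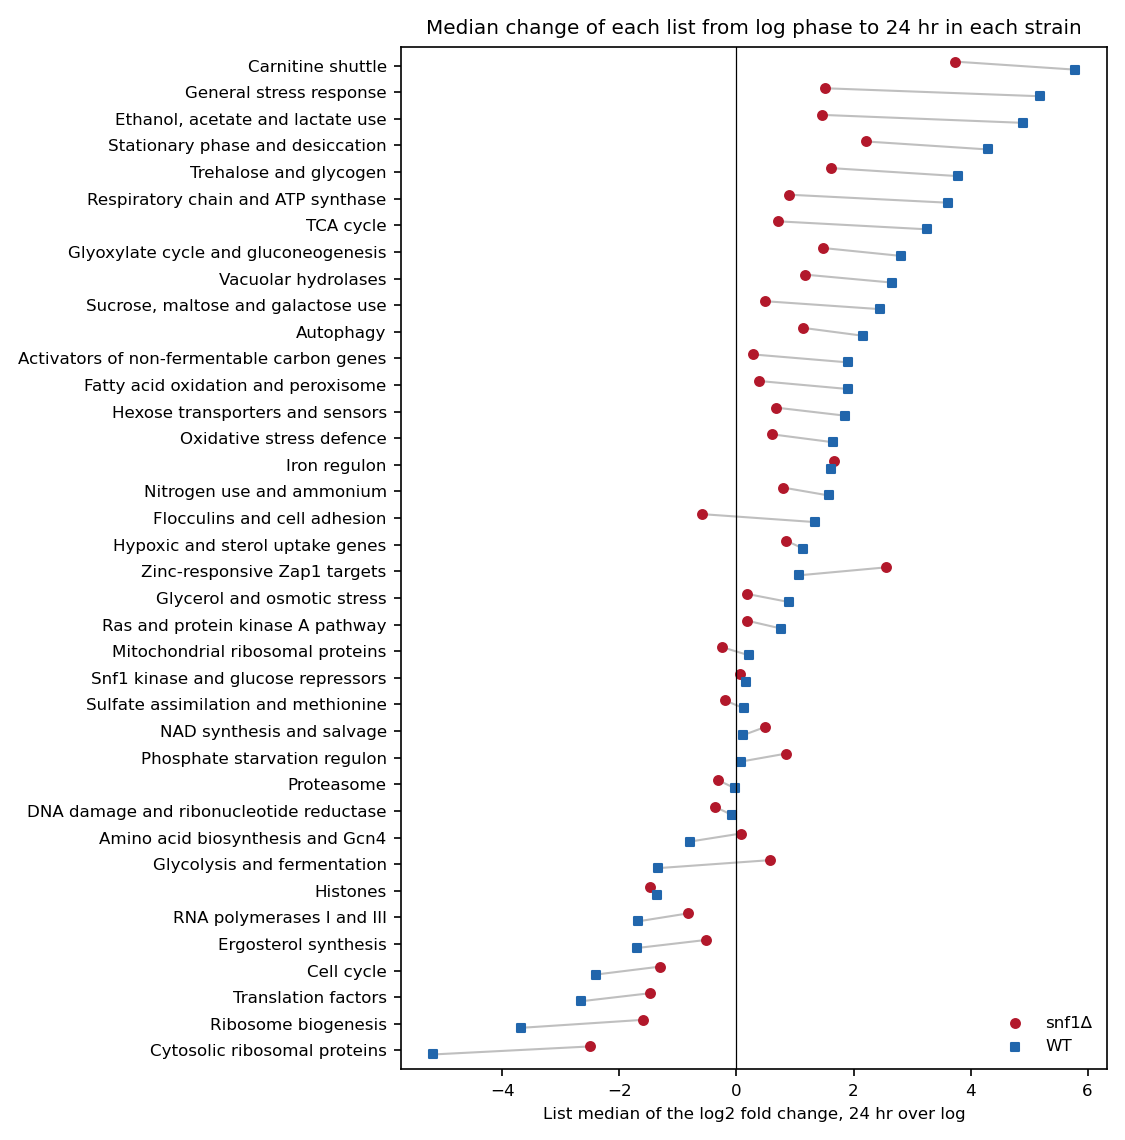
Median log2 fold change of each gene list from log phase to 24 hr in *snf1*∆ (red circles) and in WT (blue squares), with a line joining the strains for each list. The median of the general stress response was 1.52 in *snf1*∆, against 5.18 in WT, that of cytosolic ribosomal proteins -2.51, against -5.18 in WT, and that of glycolysis 0.57, against -1.34 in WT. Several lists moved at least as far in *snf1*∆. Among them were Zap1 targets (2.56, against 1.06 in WT), the phosphate starvation regulon (0.84, against 0.07 in WT) and NAD synthesis and salvage (0.49, against 0.12 in WT). The iron regulon (1.67, against 1.62 in WT) and histones (-1.48, against -1.36 in WT) were also among them.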

How the data were processed

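The authors isolated poly(A) RNA, made libraries with a kit that keeps strand, and sequenced 75-base single-end reads. Per the submitters' processing notes, Bowtie2, bedtools, edgeR and sacCer3 were used. The deposited values are raw read counts per ORF, with 6692 ORFs in the table. The strand option and mapping quality filter of the counting are not given in the sources used here, so overlapping genes, antisense genes and near-identical copies are uncertain. The R64 annotation, which is the same assembly as sacCer3, named 6008 ORFs and gave the coordinates and promoter sequences.

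Counts of the 12 WT and *snf1*∆ libraries at log and 24 hr were fitted together with edgeR 4.0.16 (R 4.3.3, limma 3.58.1; TMM scaling, filterByExpr, quasi-likelihood test, Benjamini-Hochberg adjustment over all tested genes), with 1 coefficient per group. A gene was called at an adjusted p under 0.05. The SE is the log2 fold change divided by the square root of F. DESeq2 1.42.0 was an alternative, and the scripts were tested on simulated data. Python 3.11.15, pandas 2.3.3, numpy 2.4.6 and matplotlib 3.10.9 were used for lists and figures.

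Named genes were *SNF1*, the 10 called genes with the largest fold change in each direction (mean log2 CPM of at least 3, libraries not overlapping), and members of fixed lists. For each list, per-library values were given for up to 3 members with the largest change and for members that went the other way. The gene lists, members and tests were chosen with earlier results of these data known. Deviations of same-numbered libraries were positively correlated between the strains at log (r of 0.358, 0.534 and 0.147). Between libraries of different times r was -0.281 to 0.244. An alternative fit used replicate number as a block over all 12 libraries, at log and at 24 hr. Some genes that the rule would name are not reported here.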

Additional observations from a re-analysis of the deposited data

Results flagged for a closer look

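The difference between *snf1*∆ and WT changed between log and 24 hr for 2253 genes in the upward direction and 2225 in the downward direction, by the test of the change itself (edgeR, adjusted p under 0.05). Among the genes called at both times 108 were higher in *snf1*∆ at 24 hr and lower at log, and 154 were lower at 24 hr and higher at log. The named genes that turned are given with their log2 change of the strain difference. Heat shock and stress genes were *BTN2* (-6.46), the Hsp90 gene *HSP82* (-4.73), *HSP26* (-4.05), the peroxiredoxin gene *TSA2* (-3.16) and the trehalase gene *NTH1* (-1.52). Carbon metabolism genes were the glucokinase gene *GLK1* (-3.77) with the overlapping *YCL042W* (-3.54), *PYC1* (-2.57), *PYK2* (-1.61) and the activator gene *SIP4* (-1.72), whose call at 24 hr was lost with scaling by library size alone (-0.17, adjusted p = 0.308). The arginine degradation genes were *CAR2* (-3.67) and *CAR1* (-3.26). The genes that turned upward were *RPL27B* (3.64), the iron permease gene *FTR1* (3.14), the phosphate transporter gene *PHO84* (3.12) and *RAS1* (2.00).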

How the results depend on the processing

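At 24 hr the number of genes called was 4887, and 4234 to 5198 in the alternatives that kept all 6 libraries. Leaving out each library in turn gave 4612 to 4831 genes at 24 hr (2367 to 2512 higher and 2245 to 2319 lower) and 4271 to 4458 for the difference between the times. Scaling by library size alone called 1540 genes lower at 24 hr and 139 at log. At log the number of lower genes was also 348 with upper-quartile scaling, 403 with DESeq2 and 433 with the log libraries alone. An adjusted p under 0.01 called 387 genes at log (307 higher and 80 lower), and the fit to all 24 libraries called 140 (112 higher and 28 lower). Summing WT replicates 1 and 2, an alternative chosen after seeing the data, called 4758 genes at 24 hr. With the replicate block 4952 genes were called at 24 hr, 895 at log and 4552 for the difference, and no count moved by more than 1.5 times. At 24 hr the deviations of same-numbered libraries of the strains had r of 0.0405, 0.0347 and 0.138.

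Some list medians near 0 turned positive, and the cause was not tested. With scaling by library size alone they were 0.43 for Sulfate assimilation and methionine, 0.14 for Nitrogen use and ammonium, 0.35 for the Phosphate starvation regulon, 0.24 for the Iron regulon, 0.36 for Hypoxic and sterol uptake genes, 0.13 for Histones, 0.16 for the Proteasome and 0.20 for Snf1 kinase and glucose repressors. With upper-quartile scaling they were 0.12 for the sulfate, 0.043 for the phosphate and 0.050 for the hypoxic list, and with all 24 libraries 0.021 for the sulfate and 0.031 for the hypoxic list. Leaving out 1 library gave -0.26 to 0.23 for the sulfate and -0.060 to 0.044 for the hypoxic list. The lists that turned positive with library size alone nearly kept their distance from the median of all tested genes. For the iron list this distance was -0.286 with TMM and -0.290 with library size alone. Single genes that turned positive with scaling by library size alone were *ADH2* (0.33), *GCN4* (0.021), *HXT3* (0.42), *IDP1* (0.44), *NOP16* (0.028), *PRB1* (0.40) and *PYC2* (0.40). Low counts limit genes such as *YIG1*, with 0.253 to 1.63 CPM in *snf1*∆.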

Other observations

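The gene groups below were not described above. The values are given without explanation, and the shares of all tested genes called higher (39.0%) and lower (35.9%) at 24 hr are the background for each count. Of 24 genes of the phosphate starvation regulon 10 were higher and 11 lower in *snf1*∆. *PHO89*, a sodium-phosphate cotransporter gene, had 1.01, 3.87 and 2.21 CPM in *snf1*∆, against 138, 153 and 88.1 CPM in WT (log2 fold change -5.71 ± 0.35, SE). *PHO84*, the high-affinity phosphate transporter gene, was 1.05 higher at 24 hr and lower (-2.06) at log. Of 26 iron regulon genes 10 were higher and 13 lower. The ferric reductase gene *FRE1* had 153, 205 and 269 CPM in *snf1*∆ and 40.5, 38.3 and 42.4 CPM in WT (2.38 ± 0.25), and the iron permease gene *FTR1* was 2.28 higher, while the cell wall mannoprotein gene *FIT2* was lower (-1.85). The medians of both lists changed sign with scaling by library size alone.

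Nitrogen use genes were higher in 5 of 27 cases and lower in 14. *GDH3*, a glutamate dehydrogenase gene, had 185, 172 and 121 CPM in *snf1*∆, against 1725, 1705 and 1693 CPM in WT (-3.43 ± 0.16). The arginine degradation genes *CAR1* (-2.14) and *CAR2* (-2.85) were lower at 24 hr and higher at log (1.12 and 0.82). Of 33 proteasome genes 17 were lower and 6 higher, and *RPN4*, the activator of proteasome genes, had 29.6, 29.3 and 33.5 CPM in *snf1*∆ and 293, 308 and 295 CPM in WT (-3.26 ± 0.09). Of 11 histone genes 7 were lower and none higher (1 lower and 3 higher with scaling by library size alone), led by the linker histone gene *HHO1* (-2.06), although poly(A) selection limits what is read from histone genes. The medians of these 3 lists also changed sign with scaling by library size alone.

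Of the glycerol genes the synthesis gene *GPP1* was higher (4.13), as was its paralog *GPP2* (1.42), and the glycerol kinase gene *GUT1*, for glycerol use, had 105, 110 and 92.1 CPM in *snf1*∆, against 1044, 987 and 1143 CPM in WT (-3.37 ± 0.12). Of 15 genes in this list 4 were higher and 9 lower. Of 8 flocculin and adhesion genes 7 were lower and 1 higher, and 4 of them share over 10% of their 75-base stretches with another locus. Of 22 genes of NAD synthesis and salvage 10 were higher and 7 lower, with the nicotinamidase gene *PNC1* lower (-1.34) and the kynurenine pathway gene *BNA4* 1.69 higher. Hypoxic genes were higher in 7 of 23 cases and lower in 10, and the cell wall mannoprotein gene *TIR3* had 64.9, 57.6 and 55.3 CPM in *snf1*∆ and 8.55, 9.03 and 10.4 CPM in WT (2.64 ± 0.15). Of 10 DNA damage genes 5 were lower and none higher, *RNR3* among them (-1.51), whereas scaling by library size alone called 5 lower and 5 higher (median -0.18, against -0.64 with TMM).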
